A study of Mus musculus with 6 samples.

Results

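The 36 genes described here carry cells through G2 and mitosis, and were read in whole uteri of mice that had received estradiol, an estrogen of the ovary, or vehicle, in 1 injection. They were chosen by symbol from a list of 41 mitosis and G2 genes. The rule uses no measured value, but the list was drawn up with earlier results of these data known. The 36 found are covered by 48 probe sets, out of 8251 named genes and 12422 probe sets on the array. Ccnb1, Bub1b, Cenpf, Tpx2 and Hmmr were not analysed here. The animals were C57BL/6 females labelled as aged 10 to 11 weeks (the housing text in the labels would make them older) whose ovaries had been removed 7 days before sacrifice, a state that all groups share. Estradiol (0.05 µg per mouse) or vehicle was given under the skin, and whole uteri were pooled before RNA extraction, so that each value is that of a pool, from a number of animals per pool that the labels leave unclear. The groups, with 1 array each, are vehicle (taken 24 h after injection) and estradiol at 1, 6, 12 and 24 h, and an array labelled 3 h that is given apart. Only the 24 h comparison is matched to vehicle in time since injection, and for 1, 6 and 12 h the hormone and the time since injection cannot be told apart.

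A cell that has copied its DNA enters mitosis when cyclin A2 and the B cyclins activate the kinase Cdk1. Polo-like and Aurora kinases then build the spindle, condensin compacts the chromosomes, kinesins move and sort them, and a checkpoint holds anaphase back until every kinetochore is attached. The anaphase-promoting complex ends this state by destroying cyclins and securin. Many of these genes share promoters that are repressed in resting cells and active in G2, so their RNA is used as a measure of how many cells are cycling. In the uterus of an ovariectomised rodent, estrogen is known to drive resting epithelial cells into a wave of division.

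The 5 arrays of vehicle and 1, 6, 12 and 24 h resembled each other, with a Spearman's rho over all probe sets between 0.929 and 0.968. The array labelled 3 h had 0.843 to 0.857 with each of them. All 6 uterine identity genes set as markers (Esr1, Pgr, Hoxa10, Hoxa11, Hoxd10 and Wt1) were at or above the detection floor on the 5 arrays, and all 6 were below it on the array labelled 3 h. On that array the homeobox gene Hoxa11 read 14.7 and the estrogen receptor gene Esr1 25.3, against 2674 and 530 in vehicle. These values go against the tissue in its label. Pgr, the progesterone receptor gene, read 33.7 on it, against 160.5 in vehicle. Here and below, Hoxa11, Hba-a1, Cd79a and Ptprc were singled out after their values were seen. The floor is a signal of 143.43, the 40th percentile of all values, below which signals are treated as equal. Percent of probe sets at or above the floor was 58.8% to 61.7% over the 6 arrays. No group had a replicate, so nothing could be tested. A fixed size of 2-fold (a log2 ratio of 1) was used to count genes, and the first count of members in each comparison stands beside the share of all named genes past the same fold.

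Mitosis and G2 genes stood near vehicle at 1 and 6 h, above it for a part of the list at 12 h, and above it for most of the list at 24 h. At 1 h, 1 of the 36 was at least 2-fold higher and none lower, where 0.679% and 0.279% of all named genes were. At 6 h, 2 were higher and 1 lower, beside 5.04% and 6.64% of all named genes. At 12 h, 11 (30.6%) were higher and none lower, beside 4.9% and 5.51%. At 24 h, 23 (63.9%) were higher and none lower, beside 2.71% and 2.81%. The 11 genes at 2-fold at 12 h were all among the 23 at 24 h, where 1.55% of all named genes were past it at both times. The median log2 ratio of the 36 was 0.10 (1 h), 0.00 (6 h), 0.71 (12 h) and 1.16 (24 h), with 0.00 over all named genes at each of these times. The 6 h median does not show the genes to be equal to vehicle, since 9 of the 36 were below the floor on both arrays. The counts depend on the floor: with it at the 60th percentile, 2 members were 2-fold higher at 12 h and 8 at 24 h, beside 3.28% and 1.65% of all named genes. In a whole organ, fewer cells of a type and less RNA per cell cannot be told apart.

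**Figure D1:**
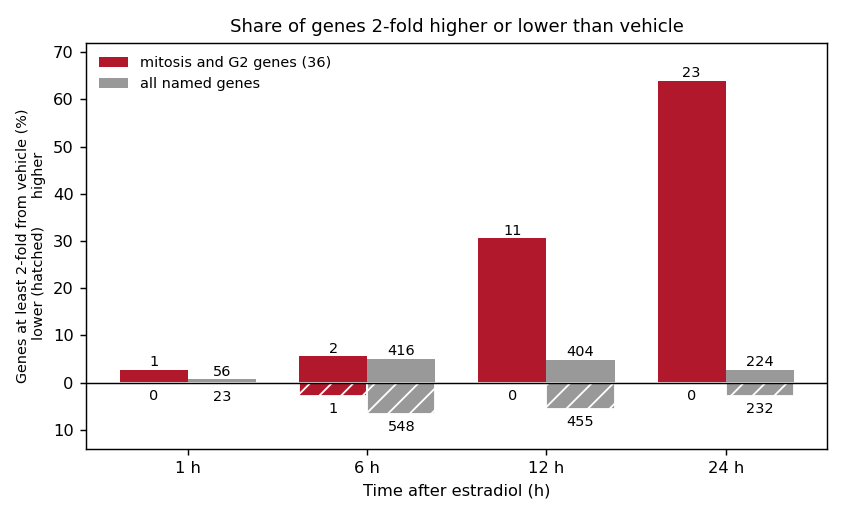
Share of genes (vertical axis, %) at least 2-fold higher (solid, upward) or lower (hatched, downward) than vehicle at 1, 6, 12 and 24 h after estradiol, for the 36 mitosis and G2 genes (red, left of each pair) and all 8251 named genes (grey); the number of genes stands at each bar. The red bars reach 11 genes at 12 h and 23 at 24 h, and the grey ones 404 and 224 genes.

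Between successive arrays, the median ratio of the list was largest for 12 over 6 h. At 6 h relative to 1 h, Mad2l1 was at least 2-fold higher and Stmn1 lower, beside 5.28% and 5.81% of all named genes, and the median log2 ratio was -0.14. At 12 h relative to 6 h, 10 of the 36 were at least 2-fold higher and 1 lower, beside 1.31% and 1.05%. At 24 h relative to 12 h, 1 was 2-fold higher and none lower, beside 2.29% and 1.96%, although 29 members had a positive ratio, 4 a negative one and 3 were below the floor on both arrays. Of all 8251 named genes, 3031 had a positive ratio, 2956 a negative one and 2264 were below the floor on both arrays. The median log2 ratio of the 36 was 0.68 at 12 h over 6 h and 0.38 at 24 h over 12 h. The signal was highest at 24 h for 25 of the 36, out of the 5 arrays, where 13.3% of all named genes had their highest signal at that time. For 19 members the signal was at least 2-fold above vehicle at 24 h with 6 h no higher than 12 h and 12 h no higher than 24 h, a pattern of 1.61% of all named genes. Cks1b, Ttk, Smc4 and Top2a were highest at 12 h (12.9% of all named genes), Mad2l1 and Ube2c at 6 h (15.7%), Foxm1 at 1 h (17.4%) and Pttg1 in vehicle (17.5%). Bub1, Cenpe and Tacc3 were below the floor on all 5 arrays. With the floor at the 20th percentile, Tacc3, a spindle microtubule protein, had a log2 ratio of 1.66 at 24 h.

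**Figure D2:**
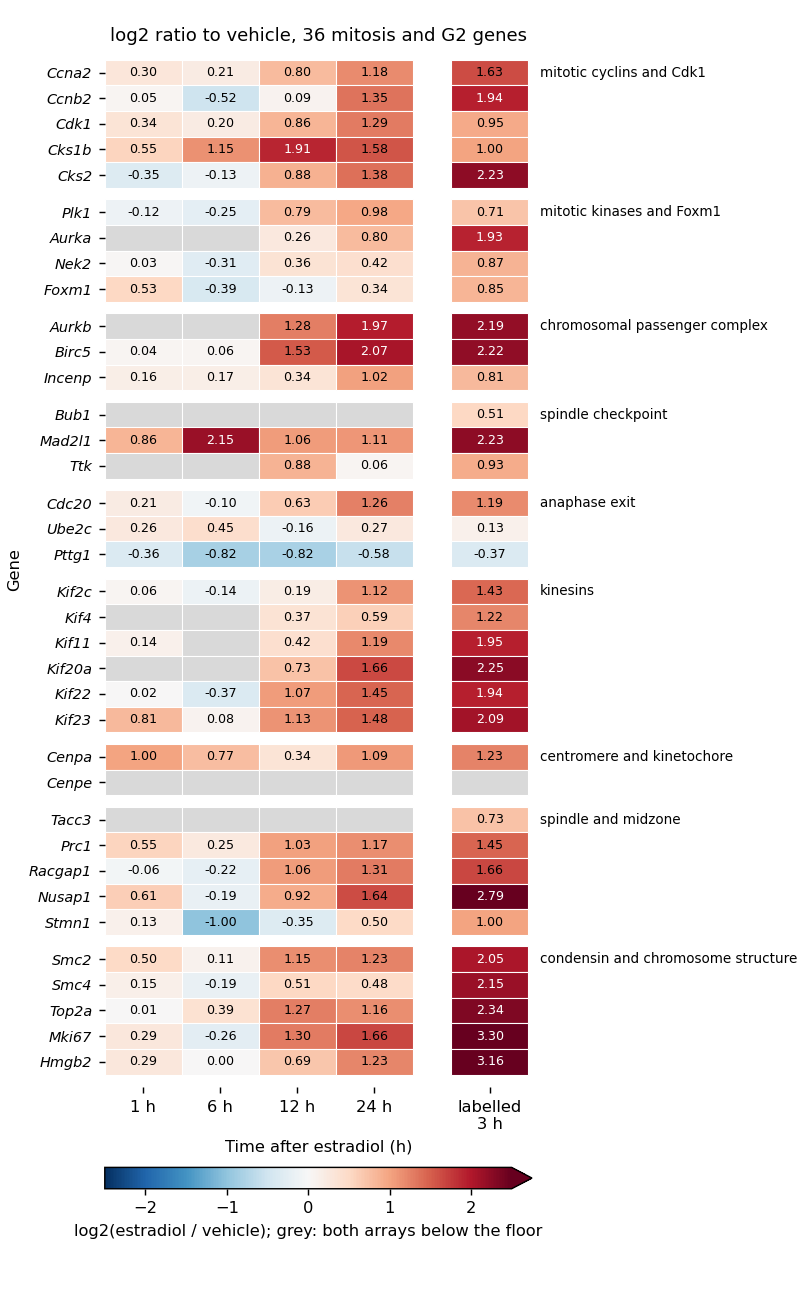
log2 ratio of estradiol over vehicle (colour, and the number in each cell) for the 36 genes, in rows by role, at 1, 6, 12 and 24 h after estradiol, with the array labelled 3 h set apart at the right; grey cells are below the floor on both arrays, and with 1 array per group no error can be drawn. The 12 h and 24 h columns are mostly red, Mad2l1 and Cks1b are red already at 6 h, and Pttg1 is blue at each time.

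Cdk1 and the genes of its partners were higher at 24 h without exception among the 5 measured, and all by at least 2-fold. Ccna2, the cyclin that acts in S phase and G2, read 499 in vehicle, 615 (1 h), 577 (6 h), 869 (12 h) and 1133 (24 h). It stood 2.27-fold above vehicle at the last time. Ccnb2, a B-type cyclin of mitosis, read 944 in vehicle, 977 (1 h), 659 (6 h), 1006 (12 h) and 2404 (24 h). The signal was lowest at 6 h, close to vehicle at 12 h and 2.55-fold higher than vehicle at 24 h, and Ccnb2 was the member that differed by 2-fold between 12 and 24 h (2.39-fold higher at 24 h). The kinase gene Cdk1 itself read 471 in vehicle, 595 (1 h), 539.9 (6 h), 854 (12 h) and 1154 (24 h), which is 2.45-fold above vehicle at 24 h. Cks1b and Cks2 encode small proteins that bind Cdk complexes, and the Cks1b protein is also needed for the destruction of the inhibitor p27. Cks1b read 399 in vehicle, 586 (1 h), 885 (6 h), 1501 (12 h) and 1191 (24 h). It was already 2.22-fold higher than vehicle at 6 h and 3.76-fold at 12 h. At 6 h, Cks1b was short of 2-fold with the mean of vehicle and 1 h as reference. Its relative Cks2 read 327 in vehicle, 257 (1 h), 300.1 (6 h), 602 (12 h) and 855 (24 h), below vehicle at 1 and 6 h and 2.61-fold above it at 24 h.

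The mitotic kinases and Foxm1, a transcription factor known to control G2 genes, had a median log2 ratio of 0.61 at 24 h, and none of these 4 reached 2-fold on its brightest probe set. Plk1, the polo-like kinase that acts from mitotic entry to cytokinesis, read 457 in vehicle, 421 (1 h), 385 (6 h), 791 (12 h) and 899 (24 h), a ratio of 1.97-fold at 24 h. Its 3 probe sets did not give the same value: the log2 ratio at 24 h was 0.98 on the brightest, and 1.78 and 0.06 on the others. Aurka, the Aurora kinase of centrosomes and spindle poles, was below the floor up to 6 h and read 172 at 12 h and 249 at 24 h, at least 1.74-fold above vehicle. This is a bound set by the floor, and Aurka passed 2-fold at 24 h with the floor at the 20th percentile (log2 ratio 1.34) or with a pseudocount of 50 (1.01). Nek2, a kinase that splits centrosomes, read 276 in vehicle, 281 (1 h), 222 (6 h), 355 (12 h) and 370.2 (24 h), within 1.34-fold of vehicle at 24 h. Foxm1 read 800.3 in vehicle, 1152 (1 h), 610.1 (6 h), 733 (12 h) and 1013 (24 h) on its brightest probe set, a ratio of 1.27-fold at 24 h. Its other probe set was below the floor at 21.2 in vehicle, 33.4 at 1 h and 21.5 at 6 h, and read 158 at 12 h and 188 at 24 h.

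The chromosomal passenger complex corrects faulty attachments of chromosomes and steers cytokinesis, and the 3 subunits among the members were each 2-fold or more higher at 24 h. A further subunit outside the 36, Cdca8 (borealin), read 664 at 24 h, against 277 in vehicle. Aurkb, the kinase of the complex, was below the floor at 66.3 in vehicle, 61.4 at 1 h and 79.9 at 6 h, and read 347 at 12 h and 561 at 24 h. That places it at least 2.42-fold and at least 3.91-fold above vehicle at these times. Birc5 (survivin), which anchors the complex at centromeres, read 141 in vehicle, 148 (1 h), 149 (6 h), 413 (12 h) and 601 (24 h). At 24 h it was at least 4.19-fold above vehicle, a bound that sets no order between Birc5 and Aurkb. With the floor at the 20th percentile the log2 ratio at 24 h was 3.08 for Aurkb and 2.09 for Birc5. Incenp, the scaffold, read 268 in vehicle, 299 (1 h), 302 (6 h), 338 (12 h) and 543 (24 h). Its 2.03-fold difference at 24 h was not shared by its other probe set, which had a log2 ratio of -0.28 at that time.

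**Figure D3:**
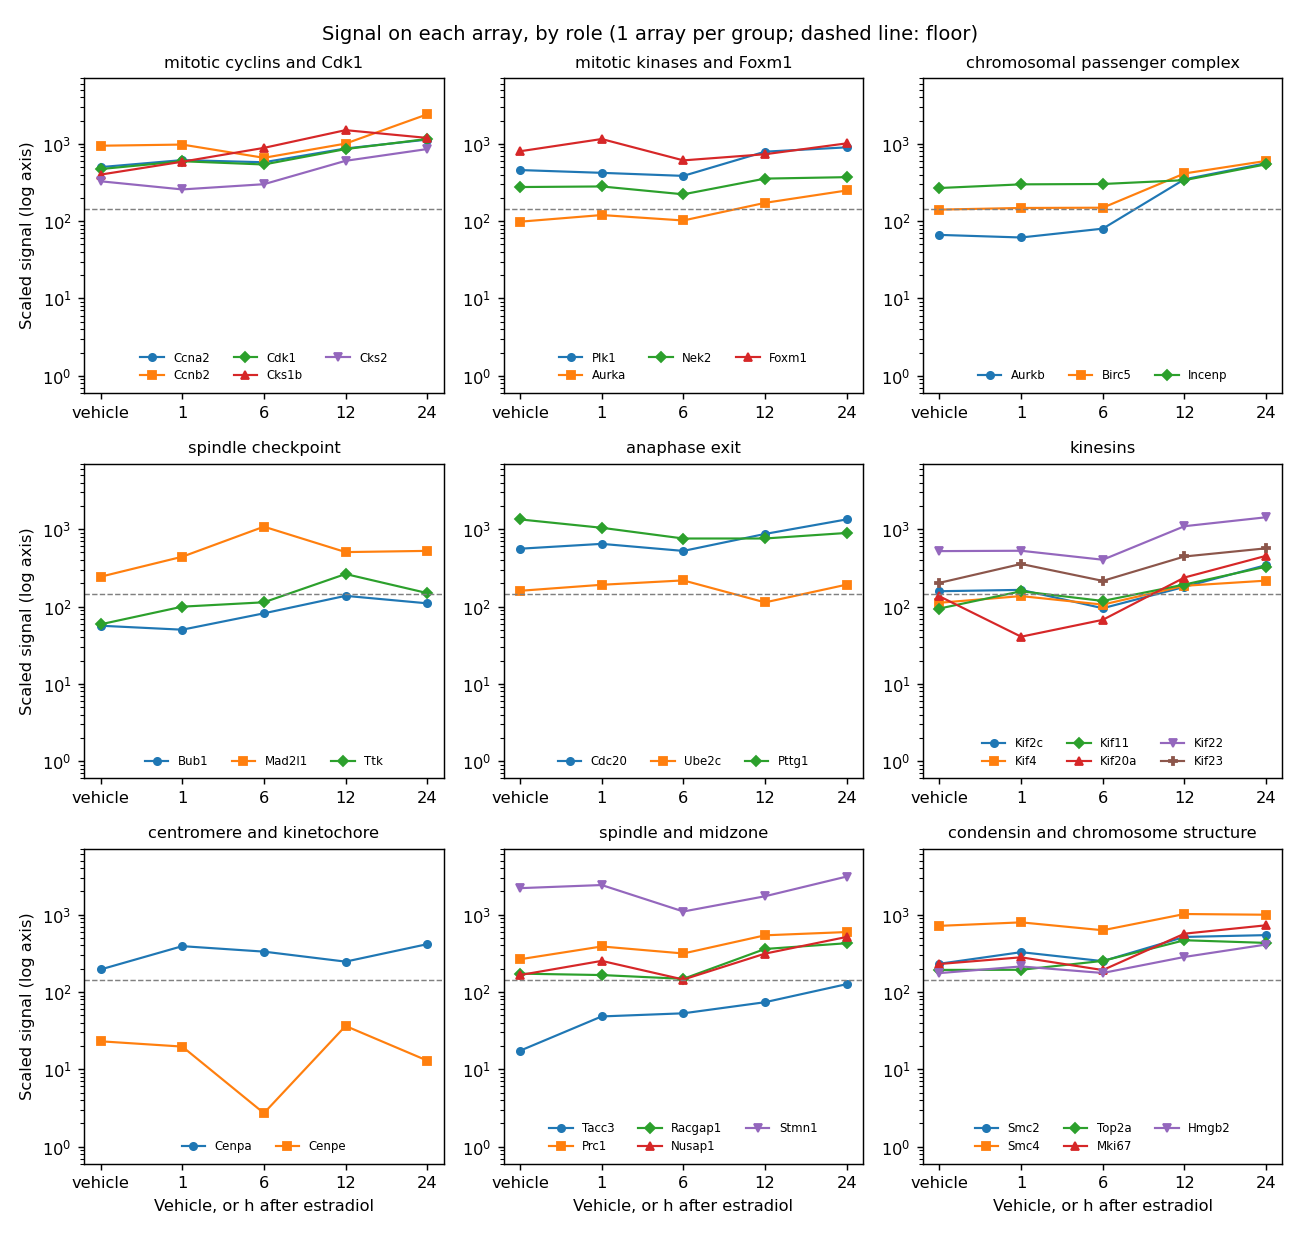
Scaled signal (vertical log axis, signal units) of each of the 36 genes on the vehicle array and at 1, 6, 12 and 24 h after estradiol, in 1 panel per role, with 1 point per array and the floor of 143.43 as a dashed line. Aurkb crosses the floor between 6 and 12 h, Mad2l1 peaks at 1079 at 6 h, and the kinesins turn upward after 6 h.

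Of the 3 checkpoint genes, Mad2l1 was above the floor on all 5 arrays, Ttk at 12 and 24 h, and Bub1 on none. Mad2l1, which blocks the anaphase-promoting complex while kinetochores are unattached, read 243 in vehicle, 441 (1 h), 1079 (6 h), 506 (12 h) and 525 (24 h). It peaked at 6 h, 4.44-fold above vehicle, and lay 2.08-fold and 2.16-fold above it at 12 and 24 h. It was also the member that was at least 2-fold lower at 12 h than at 6 h. Ttk, the kinase that starts the checkpoint, was below the floor up to 6 h and read 263 at 12 h and 149 at 24 h, at least 1.84-fold above vehicle at 12 h. Bub1, a kinase of the checkpoint, stayed below the floor on each of its 3 probe sets on the 5 arrays. Mad2l1 was the checkpoint gene at 2-fold at 6, 12 and 24 h, but at 12 and 24 h this depends on the processing. Its log2 ratios at these 2 times were 0.51 and 0.57 with the floor at the 60th percentile. With a pseudocount of 50 they were 0.92 and 0.97. For Ttk and Bub1 the floor matters too. With the floor at the 20th percentile, Ttk had log2 ratios of 2.16 at 12 h and 1.34 at 24 h, and Bub1 1.28 at 12 h. With a pseudocount of 50, Ttk had 1.53 at 12 h.

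The 3 genes that act at anaphase differed in direction at 24 h. Cdc20, the activator of the anaphase-promoting complex in mitosis, read 559.6 in vehicle, 647 (1 h), 524 (6 h), 868 (12 h) and 1339.6 (24 h), and was 2.39-fold higher at 24 h than in vehicle. Ube2c, a ubiquitin-conjugating enzyme of that complex, read 159.8 in vehicle, 191 (1 h), 218 (6 h), 113 (12 h) and 192 (24 h), above the floor except at 12 h and highest at 6 h. Pttg1 (securin), which holds back the enzyme that cuts cohesin, read 1339 in vehicle, 1044 (1 h), 758 (6 h), 759 (12 h) and 895 (24 h). Alone among the 36, Pttg1 had a log2 ratio below 0 at 24 h (-0.58), on a probe set whose name marks probes shared with similar sequences. Its other probe set was below the floor on all 5 arrays.

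Kinesins are motor proteins, and the 6 grouped here act on chromosomes, on the spindle or in cytokinesis. A further kinesin among the members, Cenpe, is given with the centromere genes and stayed below the floor. All 6 of the group had a positive log2 ratio at 12 h and at 24 h, and all 6 were higher at 24 h than at 12 h. At 24 h, 5 of the 6 were at least 2-fold higher than vehicle, with a median log2 ratio of 1.32, beside 2 of 6 and 0.58 at 12 h. Kif22, a motor that pushes chromosome arms away from the poles, read 521 in vehicle, 526 (1 h), 403 (6 h), 1094 (12 h) and 1427 (24 h). The motor gene Kif23, whose protein bundles the central spindle with Racgap1, read 203 in vehicle, 355 (1 h), 215 (6 h), 444 (12 h) and 566 (24 h). These were the members of the group at 2-fold at both times, at 2.74-fold and 2.80-fold at 24 h. Kif11, which slides the spindle poles apart, read 94.3 in vehicle, 158 (1 h), 118 (6 h), 193 (12 h) and 328 (24 h), or at least 2.29-fold above vehicle at 24 h. Kif2c, which shortens microtubules at centromeres, read 158 in vehicle, 164 (1 h), 95.1 (6 h), 179.8 (12 h) and 344 (24 h). Kif20a, needed for cytokinesis, was below the floor in vehicle, at 1 h and at 6 h and read 237 at 12 h and 453 at 24 h, at least 3.16-fold above vehicle. Its second probe set crossed the floor at 24 h alone, with a log2 ratio of 0.61. Kif4, which helps shape chromosome arms and the midzone, was at least 1.51-fold higher at 24 h, with 216 against 112 in vehicle.

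Of the proteins that build the spindle and its midzone, 3 of 5 stood 2-fold or more above vehicle at 24 h. Racgap1, the partner of Kif23 at the midzone, read 173 in vehicle, 165 (1 h), 148 (6 h), 359.9 (12 h) and 427 (24 h). Prc1, which crosslinks midzone microtubules, read 265 in vehicle, 388 (1 h), 315 (6 h), 540.3 (12 h) and 596 (24 h). Both were past 2-fold at 12 h as well as at 24 h, where they stood 2.47-fold and 2.25-fold above vehicle. With the floor at the 60th percentile, both were short of 2-fold at both times. Prc1 was also short of it at both times with the mean of vehicle and 1 h as reference. Nusap1, which ties microtubules to chromosomes, read 166 in vehicle, 252 (1 h), 145 (6 h), 313 (12 h) and 515 (24 h), 3.11-fold above vehicle at 24 h. The second probe set of Nusap1 was above the floor at 24 h alone, with a log2 ratio of 0.37. Stmn1 (stathmin), which destabilises microtubules and is inactivated in mitosis, read 2200.4 in vehicle, 2415 (1 h), 1098 (6 h), 1729 (12 h) and 3109 (24 h). It was the member just past 2-fold lower than vehicle at 6 h, and its log2 ratio was 0.50 at 24 h. Under median scaling, with a pseudocount, or with the median of its probe sets, the 6 h log2 ratio was -0.91, -0.97 or -0.50, short of 2-fold.

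Among centromere genes, Cenpa, the histone variant that marks centromeres, read 195 in vehicle, 391 (1 h), 332 (6 h), 247 (12 h) and 415 (24 h). It was the member just past 2-fold at 1 h, and was short of it with median scaling (log2 ratio 0.95), quantile normalization (0.95), a pseudocount (0.85) or the higher floor (0.14). At 24 h it stood 2.13-fold above vehicle. Cenpe, a kinesin of the kinetochore, was below the floor on both of its probe sets.

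The condensin subunits Smc2 and Smc4 form a pair in the same ring, and they differed in ratio. Smc2 read 232 in vehicle, 327 (1 h), 250.4 (6 h), 515 (12 h) and 543 (24 h), which is 2.22-fold and 2.35-fold above vehicle at 12 and 24 h. Smc4 read 716 in vehicle, 795 (1 h), 628 (6 h), 1019 (12 h) and 997 (24 h), with 1.42-fold and 1.39-fold at these times. The size of this difference depends on the floor. With it at the 60th percentile, the log2 ratios of Smc2 and Smc4 were 0.54 and 0.51 at 12 h, and 0.62 and 0.48 at 24 h. Top2a, Mki67 and Hmgb2 were each 2-fold or more higher at 24 h, as Smc2 was. Top2a, the topoisomerase that untangles sister DNA, read 193 in vehicle, 194 (1 h), 252 (6 h), 467 (12 h) and 431 (24 h). Mki67, the proliferation marker that coats mitotic chromosomes, read 230.0 in vehicle, 281 (1 h), 192 (6 h), 567 (12 h) and 728 (24 h). At 24 h they stood 2.24-fold and 3.17-fold above vehicle, and both were past 2-fold at 12 h. The second probe set of Mki67 was dimmer and had log2 ratios of 0.47 at 12 h and 0.64 at 24 h. Hmgb2, a chromatin protein of dividing cells, read 175 in vehicle, 214 (1 h), 176 (6 h), 284 (12 h) and 411 (24 h), 2.34-fold higher at 24 h.

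Set side by side at 24 h, the median log2 ratio was 1.97 for the passenger complex (3 genes), 1.35 for the Cdk1 group (5), 1.32 for kinesins (6), 1.23 for condensin and chromosome structure (5), 1.17 for spindle and midzone (5), 0.61 for mitotic kinases and Foxm1 (4), 0.54 for the centromere (2), 0.27 for anaphase (3) and 0.06 for the checkpoint (3). At 12 h it was 1.28 for the passenger complex, 1.15 for condensin and chromosome structure, 0.92 for spindle and midzone, 0.88 for the checkpoint, 0.86 for the Cdk1 group and 0.58 for kinesins. It was 0.31 for mitotic kinases and Foxm1, 0.17 for the centromere and -0.16 for anaphase. Between 12 and 24 h the median step ran from 0.68 for the passenger complex and 0.58 for kinesins to 0.08 for condensin and chromosome structure and 0.00 for the checkpoint. These orders turn with the floor, so no rank among groups is drawn from them. With the floor at the 20th percentile the checkpoint median was 1.11 at 24 h and 1.28 at 12 h, and with a pseudocount of 50 it was 0.87 at 24 h. With the floor at the 60th percentile the 12 h medians were 0.80 for the Cdk1 group, 0.51 for condensin and chromosome structure and 0.00 for the passenger complex, and the 24 h medians were 1.29, 0.48 and 0.66, with 0.18 for kinesins. The groups hold few genes, and no difference between them was tested.

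RefSeq windows of 300 bases (250 before to 50 after the start of the gene, build GRCm38.p6) were found for 29 of the 36, and none for Ccna2, Foxm1, Aurkb, Incenp, Kif20a, Stmn1 and Smc4. The reference held 32851 windows for 27025 genes, and for a gene with several windows only the first one listed was searched. The motifs searched on both strands were CCAAT, the box bound by the factor NF-Y, and TTTGAA and TTTAAA, hexamers known as forms of the cell cycle genes homology region (CHR), through which the DREAM and MuvB complexes repress genes in resting cells and activate them in G2. Windows are printed for Ccnb2, Cdk1 and Cks1b of the Cdk1 group and for 3 central spindle genes, because they were at 2-fold at 24 h and hold both kinds of motif, and for Mad2l1, which was highest at 6 h and holds none. They are in lower case with each match in capitals and 5′ to 3′ on the strand of the gene.
Ccnb2, chr9:70421505-70421804, minus strand: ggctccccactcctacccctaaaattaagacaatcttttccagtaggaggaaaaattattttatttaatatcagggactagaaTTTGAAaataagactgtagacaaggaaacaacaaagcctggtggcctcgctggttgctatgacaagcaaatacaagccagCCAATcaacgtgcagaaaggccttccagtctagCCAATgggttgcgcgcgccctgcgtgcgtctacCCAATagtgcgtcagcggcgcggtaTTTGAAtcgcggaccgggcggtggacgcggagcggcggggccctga
Cdk1, chr10:69352863-69353162, minus strand: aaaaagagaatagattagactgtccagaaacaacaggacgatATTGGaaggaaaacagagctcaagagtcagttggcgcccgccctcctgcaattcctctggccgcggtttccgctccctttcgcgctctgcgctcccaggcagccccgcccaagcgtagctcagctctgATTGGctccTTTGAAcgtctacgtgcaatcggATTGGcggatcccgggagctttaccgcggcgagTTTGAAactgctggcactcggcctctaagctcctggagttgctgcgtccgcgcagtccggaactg
Kif23, chr9:61946750-61947049, minus strand: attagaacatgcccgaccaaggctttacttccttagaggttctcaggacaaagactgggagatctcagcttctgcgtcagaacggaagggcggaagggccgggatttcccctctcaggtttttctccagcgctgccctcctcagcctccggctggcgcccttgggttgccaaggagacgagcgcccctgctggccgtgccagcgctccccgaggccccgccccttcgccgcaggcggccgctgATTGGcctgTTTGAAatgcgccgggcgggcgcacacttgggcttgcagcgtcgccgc
Racgap1, chr15:99651607-99651906, minus strand: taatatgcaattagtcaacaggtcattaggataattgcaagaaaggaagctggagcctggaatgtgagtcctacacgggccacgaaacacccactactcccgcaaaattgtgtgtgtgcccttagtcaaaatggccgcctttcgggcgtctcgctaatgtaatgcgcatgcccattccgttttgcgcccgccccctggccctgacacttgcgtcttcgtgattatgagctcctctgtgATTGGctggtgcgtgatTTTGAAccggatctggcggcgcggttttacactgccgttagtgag
Prc1, chr7:80294201-80294500, plus strand: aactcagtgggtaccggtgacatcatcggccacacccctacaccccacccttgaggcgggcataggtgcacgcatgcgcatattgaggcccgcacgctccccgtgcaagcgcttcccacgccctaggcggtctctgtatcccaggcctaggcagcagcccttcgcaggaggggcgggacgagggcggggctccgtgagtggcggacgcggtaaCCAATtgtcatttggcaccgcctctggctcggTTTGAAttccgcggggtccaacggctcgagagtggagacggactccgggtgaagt
Cks1b, chr3:89418242-89418541, minus strand: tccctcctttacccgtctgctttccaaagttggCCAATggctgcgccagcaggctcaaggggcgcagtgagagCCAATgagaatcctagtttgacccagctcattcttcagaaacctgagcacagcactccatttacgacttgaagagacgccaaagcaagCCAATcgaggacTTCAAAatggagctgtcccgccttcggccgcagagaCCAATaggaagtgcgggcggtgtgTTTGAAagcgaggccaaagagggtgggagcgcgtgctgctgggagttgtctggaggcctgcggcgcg
Mad2l1, chr6:66534971-66535270, plus strand: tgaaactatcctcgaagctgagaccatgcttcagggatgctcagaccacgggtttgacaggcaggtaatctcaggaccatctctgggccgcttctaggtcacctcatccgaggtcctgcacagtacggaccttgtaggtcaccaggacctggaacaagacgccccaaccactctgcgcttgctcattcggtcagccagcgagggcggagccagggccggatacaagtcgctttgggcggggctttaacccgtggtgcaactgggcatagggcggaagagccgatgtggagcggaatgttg

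In the Kif23 and Racgap1 windows, a CCAAT match on the other strand (read as ATTGG) lay 7 and 12 bases before the start, and TTTGAA began at bases 3 and 6 after it. In the Prc1 window CCAAT began 37 and TTTGAA 5 bases before the start. The Ccnb2 window held 3 CCAAT matches, at 87, 54 and 21 bases before the start, and the Cdk1 window 3 as well. Cks1b, at 2-fold from 6 h on with vehicle as reference, held 4 CCAAT and 2 TTTGAA matches, while the Mad2l1 window held none of the 3 motifs. Ube2c, which was also highest at 6 h, held 6 CCAAT matches and 1 TTTGAA match. The printed windows were picked by ratio and by motif, so the contrast among them is no result about the members. Over the 29 windows, CCAAT was present in 23 (79.3%), beside 37.9% of all 27025 genes with a window and 38.3% of the 6576 on the array. TTTGAA or TTTAAA was present in 22 (75.9%), beside 27.8% and 20.8%, and within 50 bases of the start in 19 (65.5%), beside 8.24% and 5.78%. A CCAAT together with either hexamer was present in 20 (69.0%), beside 10.9% and 8.47%. Matches overlapped each other once, in the Ube2c window, where CCAAT matches on opposite strands share bases. Among the 19 members with a window that were 2-fold higher at 24 h, 14 (73.7%) held this combination, and among the other 10 members 6 did. Nusap1 (3.11-fold above vehicle at 24 h), Tacc3 and Pttg1 held none of the 3 motifs, as Mad2l1 did. A match is a run of letters and no evidence of binding, and its absence says only that these letters are not in the window.

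**Figure D4:**
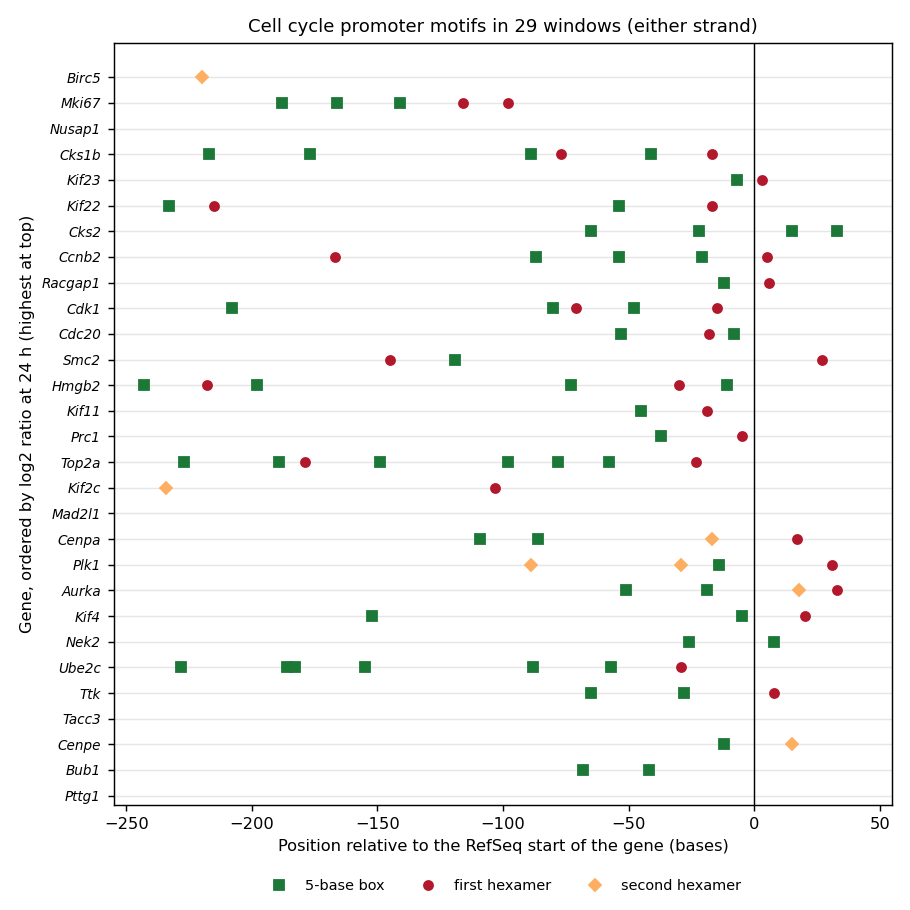
Position (horizontal axis, bases from the RefSeq start of the gene, vertical line at 0) of the 5-base box (green squares) and of the first and second hexamer (red circles, orange diamonds) on either strand in the promoter windows of 29 members, in rows by log2 ratio at 24 h with the highest at the top. The hexamers gather near the start in most rows, and the rows of Nusap1, Mad2l1, Tacc3 and Pttg1 are empty.

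Other genes of G2 and mitosis, outside the 36, gave a smaller share. Both lists were drawn up with earlier results of these data known, so this difference in share is no result about the members. Of 45 such genes on the array, 2 stood 2-fold or more above vehicle at 6 h and 1 below it, 7 higher and 1 lower at 12 h, and 7 higher and none lower at 24 h (15.6% at each of the last times). Of all named genes, 5.04%, 4.9% and 2.71% were higher at these times, and 6.64%, 5.51% and 2.81% lower. The median log2 ratio of the 45 genes was 0.00, 0.29 and 0.03. Their list includes cohesin, tubulin and anaphase-promoting complex genes with uses outside mitosis. The part of these genes in the smaller share was not tested. Of the 7 at 24 h, the 5 that were also bright (a signal of 354.22 or more on the brighter array) were Ckap2, a microtubule protein, at 3.06-fold, Ect2, the activator of cytokinesis through RhoA, at 2.47-fold, Cdca8 at 2.39-fold, the contractile ring gene Anln at 2.25-fold and the microtubule-associated gene Gtse1 at 2.10-fold. At 12 h, Ran, the GTPase that guides spindle assembly and nuclear transport, read 12895, against 5151 in vehicle. Ckap2 was 2.37-fold higher than vehicle at 12 h, Plk4, the kinase of centriole duplication, 2.31-fold, Anln 2.16-fold and the nuclear lamina gene Lmnb1 2.16-fold. Rcc1, which loads Ran with GTP, was 2.04-fold higher at 12 h. Ran and Rcc1 had their highest signal at 6 h (14578 and 638), against 5151 and 220 in vehicle. Numa1, a spindle pole protein of the nuclear matrix, was 2.70-fold lower at 12 h, with 893 against 2412 in vehicle.

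DNA replication genes, which serve the phase before, were set beside the members. At 6, 12 and 24 h, 2, 11 and 23 of the 36 members stood 2-fold or more above vehicle, and 5, 8 and 5 of 43 DNA replication genes did. Of all named genes, 5.04%, 4.9% and 2.71% did. The median log2 ratio was 0.00, 0.71 and 1.16 for the members and 0.04, 0.52 and 0.27 for DNA replication. At 24 h, 3 of the 36 and 8 of the 43 were below the floor on both arrays and entered these medians as 0. The contrast at 12 h turns with the floor. With it at the 60th percentile, 2 members were past 2-fold at 12 h, fewer than the DNA replication genes that were. The median log2 ratio of the members was then 0.00. The highest of the 5 arrays was 24 h for 25 of 36 members and for 11 of 43 DNA replication genes, and 12 h for 4 of 36 and 20 of 43. Rrm2, a subunit of ribonucleotide reductase, was at least 3.12-fold above vehicle at 6 h and at least 4.65-fold at 12 h, and read 279 at 24 h, against 113 in vehicle. Mcm5, of the replicative helicase, stood 2.41-fold, 2.97-fold and 2.51-fold above vehicle at 6, 12 and 24 h, and Uhrf1, which maintains DNA methylation, 2.28-fold, 3.85-fold and 2.76-fold. The thymidine kinase gene Tk1 was 2.55-fold higher at 24 h. Both lists use the same vehicle array, and the difference between them was not tested.

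**Figure D5:**
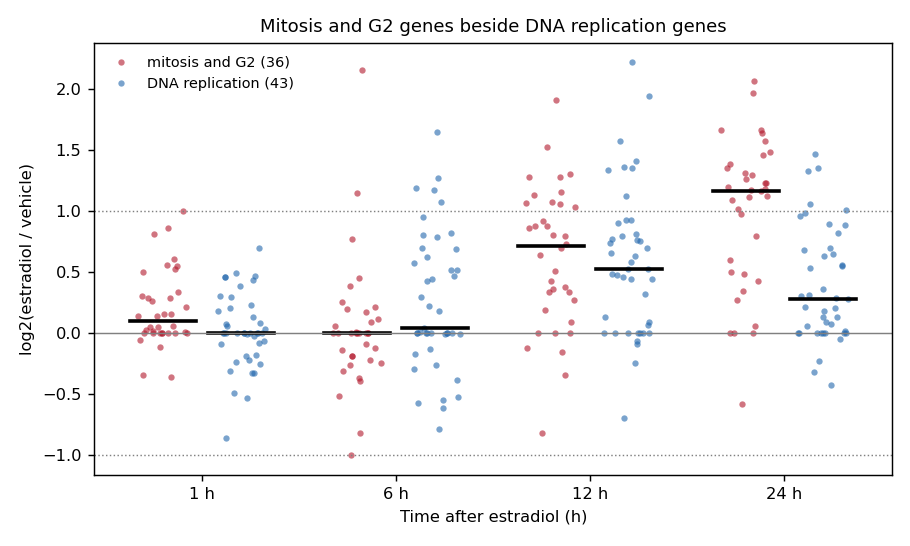
log2 ratio of estradiol over vehicle (vertical axis) at 1, 6, 12 and 24 h for the 36 mitosis and G2 genes (red, left at each time) and the 43 DNA replication genes (blue, right); each point is a gene, black bars are medians and dotted lines mark 2-fold. At 24 h the red median is 1.16 and the blue one 0.27, while at 12 h they are 0.71 and 0.52.

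Cell type markers moved on the same arrays. The summed signal of the 7 uterine epithelium markers was 9583 in vehicle, 8519 (1 h), 9810 (6 h), 10591 (12 h) and 14300 (24 h), with all 7 above the floor on each. The 7 smooth muscle markers summed to 37786 in vehicle, 29090 (1 h), 38730 (6 h), 45745 (12 h) and 54980 (24 h). The 6 stroma markers summed to 51421 in vehicle, 43256 (1 h), 27609 (6 h), 43016 (12 h) and 73885 (24 h). All 3 sums were higher at 24 h than in vehicle, but not all of their genes were: 6 of 7 epithelium, 6 of 7 smooth muscle and 4 of 6 stroma markers were. The collagen gene Col1a1 read 29215 at 24 h, against 10388 in vehicle, while the matrix gene Dcn read 13717 against 24097, the stromal receptor gene Pdgfra 3649 against 6146 and the smooth muscle gene Smtn 996 against 1942. These 4 genes were singled out after their values were seen. The part of these markers in the result was not tested. The 7 leukocyte markers summed to 5391 in vehicle, 5700 (1 h), 3354 (6 h), 3660 (12 h) and 4748 (24 h), and the pan-leukocyte gene Ptprc was below the floor at 6, 12 and 24 h. The 6 endothelium markers summed to 2128 at 24 h, against 3827 in vehicle, with 4 of them lower and 2 higher than vehicle.

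On the array labelled 3 h, 23 of the 36 members were at least 2-fold higher than vehicle and none lower, beside 8.56% and 9.76% of all named genes. For 28 of the 36 it held the highest signal of all 6 arrays, beside 18.8% of all named genes. Mki67 read 2271 there, against 728 at 24 h and 230.0 in vehicle, and Hmgb2 read 1569.5, against 411 and 175. The second probe set of Mki67 did not share this, with 69.75 there and 108.05 in vehicle, both below the floor. Smc4 read 3180.0, against 997 at 24 h and 716 in vehicle. Bub1 (204) and Tacc3 (239), below the floor on the other 5, were above it. The other probe sets of Bub1 stayed below the floor there, at 38.34 and 79.28. The same array read 25256 for the globin gene Hba-a1, 1556 for Ptprc and 1880 for the B cell gene Cd79a, against 2567, 145 and a value below the floor in vehicle, with the summed leukocyte markers at 19763 against 5391 and those of uterine epithelium at 704 against 9583. Since its uterine markers were below the floor, its values are no time point of the course described above.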

How the data were processed

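Gene expression was measured on 6 Affymetrix U74Av2 arrays, 1 per group. The authors deposited signal intensity on a linear scale, with 1 value for each probe set on each array and no detection calls, made with MAS5 per the submitters' processing notes (version not given in the sources used here). The deposited arrays have nearly equal trimmed means. From these values, 66 control probe sets were left out of 12488, each array was rescaled to a trimmed mean of 500 (2% removed at each end), signals below the 40th percentile (143.43) were raised to it, and log2 was taken. Of the probe sets, 10833 were annotated to 1 gene symbol, 396 to several and 1193 to none, and names were given for those with 1 symbol. Current symbols were looked up by gene ID in RefSeq (GRCm38.p6), which matched 10817. A gene is represented by its brightest probe set. For 8 members that probe set carries a suffix marking probes that are not fully unique or that miss a design rule. These are Plk1, Foxm1, Ube2c, Pttg1, Kif20a, Kif22, Nusap1 and Hmgb2. Where the dimmer array was below the floor, the fold is against the floor and a lower bound. The number of arrays limits the precision. All 36 members are named. Of the other G2 and mitosis genes, those named are up to 6 with the highest and 6 with the lowest ratio at 12 or 24 h past 2-fold with a signal of 354.22 (the 60th percentile of all values) or more on the brighter array. Of DNA replication genes, those named are up to 3 with the highest ratio at 6, 12 or 24 h. Members and lists were chosen with earlier results of these data known. The steps were tested on simulated data, in which only genes well above the floor in vehicle were changed. The effect of the floor on a changed gene was not covered. Python 3.11.15 with numpy 2.4.6 and pandas 2.3.3 was used.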

Additional observations from a re-analysis of the deposited data

How the results depend on the processing

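All counts rest on 1 array per group, so no alternative replaces a replicate. Of 9 alternatives, 8 were planned and 1, leaving out the array labelled 3 h, was chosen after seeing the data and left every count of members in place. The number of members at least 2-fold higher ran from 8 to 26 at 24 h and from 2 to 14 at 12 h. The share of all named genes moved too: with the floor at the 20th percentile, which gave 26 and 14, it was 5.51% at 24 h and 7.22% at 12 h, and at the 60th, which gave 8 and 2, 1.65% and 3.28%. With the floor at the 60th percentile, 0 members were 2-fold higher at 1 h, 2 at 12 h and 8 at 24 h, since a higher floor caps the ratio of genes that are dim in vehicle. Of 38 member values at 2-fold, 27 lost this fold under at least 1 alternative, and 25 of them under this floor. At 24 h, Ccna2, Ccnb2, Cdk1, Cks1b, Cks2, Cdc20, Kif22 and Mki67 kept 2-fold under all 9. Kif22 rests on 1 probe set, with a suffix for probes not fully unique or missing a design rule. No alternative covers this. With the floor at the 20th percentile, 1 member was 2-fold lower at 1 h and 2 at 6 h, beside 1.98% and 10.2% of all named genes. With no floor and a pseudocount of 50, 0 were higher and 1 lower at 1 h, and 0 lower at 6 h. The shares of all named genes were 1.59%, 0.848% and 7.28%. Scaling to the same median gave 0 higher at 1 h and 0 lower at 6 h, beside 0.509% and 5.38%. Quantile normalization gave 0 higher at 1 h (0.57% of all named genes), and the median of all probe sets 0 lower at 6 h (5.48%). With the mean of vehicle and 1 h as reference, 1 member was higher at 6 h and 19 at 24 h, beside 4.74% and 2.55%. No member at 2-fold changed sign under any alternative. Apart from the floors, the cause of these differences was not tested. With the higher floor, the other G2 and mitosis genes at 2-fold higher were 1 at 6 h, 2 at 12 h and 0 at 24 h, those of DNA replication 3 at 6 h and 4 at 12 h, and the members 2-fold higher at 12 h than at 6 h were 2. With the pseudocount, 3 of the other G2 and mitosis genes were higher at 12 h, and 6 members from 6 to 12 h. With the median of all probe sets, 2 DNA replication genes were higher at 24 h and 2 members from 12 to 24 h.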
